A study of Mus musculus with 8 samples.

Results

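Fatty acid oxidation and acyl-CoA hydrolysis were followed through 39 listed mouse genes. These were chosen by symbol, with earlier results of these data known, and sorted here into 9 roles. They comprise acyl-CoA thioesterases, long-chain acyl-CoA synthetases, the carnitine shuttle, the enzymes of mitochondrial β-oxidation, electron transfer proteins, peroxisomal enzymes and regulators. Of the 39 genes, 37 had a probe set assigned to a single gene and were measured, among 18193 genes in all. Acsl1 and Cpt1b had none and were not analysed here.

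The samples were mouse embryonic stem cells (ESCs), 8 in all, each measured on 1 Affymetrix expression array. The study asked what depletion of MYC activity does to naive ESCs and whether the state resembles embryonic diapause, the reversible arrest of the blastocyst. In 3 samples the cells received DMSO, the solvent, for 60 h (DMSO). In 2 samples they received 10058-F4, a small molecule that keeps MYC from dimerising with MAX, at 64 μM for 60 h (MYCi), and in 3 samples the same treatment was followed by 48 h in medium from which the inhibitor had been withdrawn (Resc). All cells, controls included, grew on gelatine without feeder cells or serum, in N2B27 medium with LIF, 1 μM of the MEK inhibitor PD0325901 and 3 μM of the GSK3 inhibitor CHIR99021. Strain and line are not given in the sources used here, and MYC was targeted by a drug alone, not by a mutation. Resc cells were harvested 48 h later than DMSO cells, so that time in culture and recovery cannot be told apart in that comparison. Whether the samples of a group were separate cultures is not stated in the labels. The p-values therefore measure the spread among these arrays, and that spread may be technical.

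In fatty acid oxidation, an acyl-CoA synthetase first couples the fatty acid to coenzyme A. Carnitine palmitoyltransferase 1 on the outer mitochondrial membrane moves the acyl group to carnitine, the carrier Slc25a20 takes acylcarnitine across the inner membrane, and Cpt2 rebuilds acyl-CoA in the matrix. Each round of β-oxidation then runs through a dehydrogenase, a hydratase, a second dehydrogenase and a thiolase, and the electrons of the first step pass through the electron transfer flavoprotein and its reductase to ubiquinone. Thioesterases run opposite to the synthetases and free the fatty acid from coenzyme A. In embryos, lipid stores are an energy source of the blastocyst, and naive ESCs draw on both glycolysis and mitochondrial respiration.

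Levels are given as log2 values of the array, a relative scale on which 1 unit is 2-fold, and cannot be compared between genes. The error of a log2 difference is limma's moderated standard error (SE), and the adjusted p is limma's, with the Benjamini-Hochberg adjustment made over all 18193 genes. A gene rose or fell where this p was under 0.05. The bacterial Trpn control probe sets, which no mouse RNA should light, lay between 2.15 and 2.95, and genes near that level can show only compressed differences.

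The labelled cell type was checked on 10 markers of pluripotent cells, whose mean level was 10.70 to 10.73 on DMSO arrays, 10.79 on both MYCi arrays and 10.63 to 10.65 on Resc arrays, with 0 of 10 under the highest Trpn value. Single markers did change: 4 of the 10 rose and 1 fell with the inhibitor, with a lowest log2 difference of -1.08. Between Resc and DMSO 0 were higher and 1 was lower, with a lowest difference of -1.33. Some markers of other cell types were lower with the inhibitor: 3 of 7 neural, 2 of 7 mesoderm, 4 of 11 endoderm and 2 of 12 fibroblast and feeder genes fell, and 1 of the last list rose. Over all genes, 22.3% fell and 19.2% rose. The median log2 difference was -0.07 for the neural, -0.03 for the mesoderm, -0.11 for the endoderm and -0.06 for the fibroblast list. That of all genes was -0.06, so the lower list means rest on a few genes. The mean level of the neural list was 4.67 to 4.81 on DMSO arrays and 4.25 and 4.27 on MYCi arrays, that of mesoderm 4.40 to 4.56 and then 4.16 and 4.19, that of endoderm 4.29 to 4.34 and then 4.12 and 4.15, and that of fibroblasts and feeder cells 4.70 to 4.76 and then 4.57 and 4.67. On Resc arrays the neural list lay at 4.445 to 4.56 and mesoderm at 4.32 to 4.33, each below its DMSO range. Endoderm lay at 4.32 to 4.39 and fibroblasts and feeder cells at 4.75, both overlapping DMSO. Between Resc and DMSO 3 of 7 neural and 1 of 7 mesoderm genes were lower, beside 4.01% of all genes, and 0 of either list were higher. The median log2 difference there was -0.02 for each of these 2 lists. The list of 10 trophectoderm markers was higher with the inhibitor: its mean level was 5.28 to 5.37 on DMSO arrays, 7.01 to 7.17 on MYCi arrays and 5.28 to 5.39 on Resc arrays, and 6 of the 10 genes rose. The group mean of 2 of these markers lay under the highest Trpn value with DMSO, of 0 with the inhibitor and of 1 after withdrawal. The 3′ minus 5′ log2 difference of the Gapdh control probe sets, a sign of RNA quality, was -0.13 to -0.11 on DMSO arrays, -0.15 and -0.22 on MYCi arrays and -0.13 to -0.12 on Resc arrays. The part of these shifts in the results on MYCi and Resc arrays was not tested. In bulk RNA, a change in the share of a cell type and a change of RNA per cell cannot be told apart.

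With the inhibitor, 20 of the 37 measured genes rose and 5 fell on the probe set that stood for the gene, and 12 did not pass the test. Over all genes, 19.2% rose and 22.3% fell. The median log2 difference of the 37 genes was 0.23, against -0.06 for all genes tested, and their median absolute difference was 0.32 against 0.19. Because the members were chosen with earlier results of these data known, this contrast with all genes may partly reflect the choice. Changes of at least 2-fold were seen in 5 genes, all of them higher: Acot2, Acadl, Acot1, Cpt2 and Slc25a20. After withdrawal, 2 genes were higher and 4 lower than with DMSO and 31 did not pass, where 4.66% of all genes were higher and 4.01% lower, and the members' median difference was 0.02 against 0.00 for all genes. Between Resc and MYCi arrays 3 members were higher and 19 lower, where 22.7% of all genes were higher and 19.2% lower. The 3 comparisons share arrays, so their counts are not independent of each other.

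**Figure D1:**
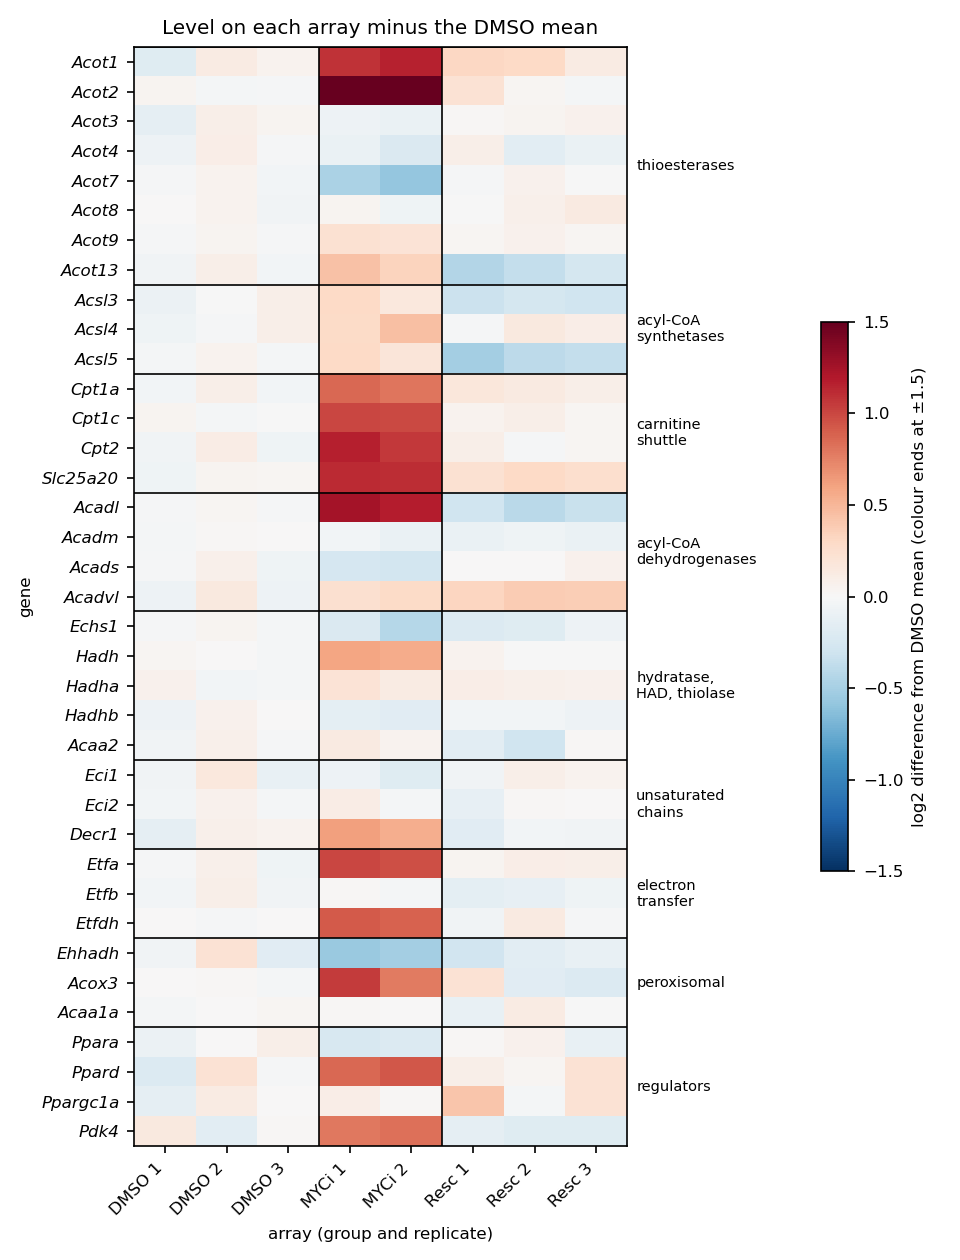
Heat map of the 37 measured members (rows, by role) on the 8 arrays (columns), where the colour is the log2 level on that array minus the DMSO mean of the gene, red for higher and blue for lower, with colour ending at ±1.5. The 4 carnitine shuttle genes are red on both MYCi arrays, and Acot2, 3.66 above DMSO there, is past the end of the scale.

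Among the 8 thioesterases, Acot2 gave the largest change of any member. Acot2 is the mitochondrial and Acot1 the cytosolic long-chain acyl-CoA thioesterase of the mouse, and both genes lie side by side in a cluster on chromosome 12. The 250 bases before the start of each are shown, from RefSeq promoter windows of the assembly GRCm38.p6, because these neighbouring genes rose together by very different amounts. Neither holds any of the 4 short motifs searched for, so no letters are in capitals. Acot2 is at chr12:83987611-83987860 and Acot1 at chr12:84009252-84009501, both on the plus strand:
Acot2: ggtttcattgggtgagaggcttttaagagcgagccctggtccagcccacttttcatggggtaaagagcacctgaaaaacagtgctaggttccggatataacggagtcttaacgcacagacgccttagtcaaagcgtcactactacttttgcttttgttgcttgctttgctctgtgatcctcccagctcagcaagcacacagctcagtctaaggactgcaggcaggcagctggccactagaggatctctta
Acot1: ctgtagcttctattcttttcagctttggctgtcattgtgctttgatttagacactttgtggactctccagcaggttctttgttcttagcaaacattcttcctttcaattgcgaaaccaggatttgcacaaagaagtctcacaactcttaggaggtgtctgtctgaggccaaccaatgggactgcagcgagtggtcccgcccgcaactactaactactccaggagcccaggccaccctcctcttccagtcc
In a global alignment the 2 stretches were identical at 55.7% of the aligned bases. This lies within the 48.9% to 63.1% found for the other 5 pairings among these and the Cpt1a and Cpt1c stretches.

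The log2 level of Acot2 was 6.15, 6.08 and 6.09 on DMSO arrays, 9.69 and 9.85 on MYCi arrays, and 6.32, 6.13 and 6.08 on Resc arrays. Both MYCi arrays stood more than 3 units above every other array, and Resc and DMSO arrays overlapped. Acot2 was 12.6-fold higher with the inhibitor (log2 difference 3.66 ± 0.09, adjusted p = 9.66e-09) and 12.0-fold lower after withdrawal than with it (adjusted p = 1.11e-08). The difference between Resc and DMSO was 0.07, with a 95% interval of -0.10 to 0.24. The gene's other probe set read 4.66, 4.78 and 4.41 with DMSO, 8.15 and 8.04 with the inhibitor, and 4.79, 4.76 and 4.75 after withdrawal, a difference of 3.48 between MYCi and DMSO.

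Acot1 read 4.23, 4.55 and 4.47 on DMSO arrays, 5.51 and 5.57 on MYCi arrays, and 4.73, 4.72 and 4.54 on Resc arrays. The MYCi arrays were again above all others, and the lowest Resc array lay below the highest DMSO array. It rose 2.17-fold with the inhibitor (log2 1.12 ± 0.10, adjusted p = 1.34e-05) and fell by 0.88 between MYCi and Resc (adjusted p = 6.82e-05). Acot1 and Acot2 are close paralogs whose probes can share targets, so the split of signal between them is uncertain. A further probe set that the annotation gives to both was not used.

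The other genes of the cluster did not pass the test with the inhibitor. In RefSeq's order along the chromosome, Acot2 and Acot1 are followed by Acot4, Acot3, Acot5 and Acot6. Acot4 and Acot3, both peroxisomal thioesterases, differed by -0.16 (95% interval -0.36 to 0.04, adjusted p = 0.187) and -0.09 (adjusted p = 0.362). Acot5 and Acot6, named by position and not among the members, differed by 0.09 and -0.03, and the flanking genes Riox1 and Dnal1 by -0.10 and 0.08. Acot5 lay under the highest Trpn value in all 3 groups, with means of 2.63, 2.72 and 2.76, and Acot4 close to it, with means of 3.07 to 3.23. A change of Acot5 could therefore not be measured, and one of Acot4 could be compressed.

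The remaining thioesterases moved by smaller amounts. Acot7, a cytosolic thioesterase known mainly from brain, was 8.90 and 8.79 on MYCi arrays, under the lowest DMSO value of 9.33, a fall of 0.53 ± 0.07 (adjusted p = 0.000139), and its Resc values of 9.35, 9.43 and 9.36 lay among those of DMSO. Acot9, a mitochondrial thioesterase, rose by 0.22 ± 0.06 (adjusted p = 0.0136). That call was lost without either MYCi array, with adjusted p = 0.0733 without the first and 0.0517 without the second. Acot8, of peroxisomes, differed by -0.01 (95% interval -0.17 to 0.15).

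Acot13, a small thioesterase of the hotdog-fold family, moved both ways. It read 7.90, 8.03 and 7.91 with DMSO, 8.39 and 8.28 with the inhibitor, and 7.51, 7.59 and 7.68 after withdrawal. The 3 groups did not overlap, with Resc lowest. Acot13 rose by 0.39 ± 0.08 with the inhibitor (adjusted p = 0.00256) and was 1.28-fold lower after withdrawal than with DMSO (log2 -0.35 ± 0.07, adjusted p = 0.0126). In all, 4 of the 8 thioesterases rose and 1 fell with the inhibitor, and Acot13 alone of the 8 passed between Resc and DMSO.

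Long-chain acyl-CoA synthetases activate fatty acids for oxidation or for lipid synthesis. On the probe set that stood for each gene, the 3 measured ones rose with the inhibitor by 0.23 to 0.37. Another probe set of Acsl3 fell, however, and not every probe set of Acsl4 passed. After withdrawal, Acsl3 and Acsl5 were lower than with DMSO. Acsl5, found on mitochondria and endoplasmic reticulum, read 7.34, 7.43 and 7.35 with DMSO, 7.67 and 7.56 with the inhibitor, and 6.87, 6.98 and 7.02 after withdrawal. Its 3 groups were apart, in the same order as for Acot13. The rise was 0.24 ± 0.07 (adjusted p = 0.022), and Resc stood 1.34-fold below DMSO (log2 -0.42 ± 0.06, adjusted p = 0.00375). The rise did not pass without DMSO replicate 1 (adjusted p = 0.058), DMSO replicate 3 (0.056) or MYCi replicate 1 (0.161).

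Acsl4, which prefers arachidonic acid, rose by 0.37 ± 0.08 (adjusted p = 0.00479), but not when MYCi replicate 2 was left out (0.28, adjusted p = 0.0571) or with the mean of its 3 probe sets (0.18, adjusted p = 0.0576). Its other probe sets gave 0.25, which passed (adjusted p = 0.0224), and -0.08, which did not. Acsl3, of lipid droplets and endoplasmic reticulum, gave no stable direction with the inhibitor. Its best-lit probe set read 8.78, 8.86 and 8.96 with DMSO, 9.16 and 9.02 with the inhibitor, and 8.54, 8.61 and 8.57 after withdrawal. These groups did not overlap, with a rise of 0.23 ± 0.07 with the inhibitor (adjusted p = 0.0345) and a difference of -0.29 ± 0.07 between Resc and DMSO (adjusted p = 0.025). The gene's other 2 probe sets were also lower between Resc and DMSO, with -0.39 and -0.28, and both passed. The probe set with -0.39 gave 0.11 with the inhibitor and did not pass. The probe set with -0.28 fell with the inhibitor by 0.56 (adjusted p = 0.000168), from 6.29, 6.29 and 6.33 to 5.72 and 5.78, and read 6.10, 6.03 and 5.94 after withdrawal. The rise was also lost without DMSO replicate 1, DMSO replicate 2, MYCi replicate 1 or Resc replicate 3, and the fall after withdrawal without any 1 of 5 DMSO or Resc arrays (adjusted p between 0.0588 and 0.0826).

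All 4 measured genes of the carnitine shuttle rose with the inhibitor, by 0.83 to 1.11 and with a median of 1.05, and all 4 fell between MYCi and Resc. The 250 bases before the starts of Cpt1a and Cpt1c are shown because they are the shuttle genes whose stretch held a motif. The capitals mark the nuclear receptor half-site AGGTCA, which reads TGACCT on the other strand. Cpt1a is at chr19:3323051-3323300 on the plus strand, with the match 94 bases before the start, and Cpt1c at chr7:44974852-44975101 on the minus strand, with the match 146 bases before it:
Cpt1a: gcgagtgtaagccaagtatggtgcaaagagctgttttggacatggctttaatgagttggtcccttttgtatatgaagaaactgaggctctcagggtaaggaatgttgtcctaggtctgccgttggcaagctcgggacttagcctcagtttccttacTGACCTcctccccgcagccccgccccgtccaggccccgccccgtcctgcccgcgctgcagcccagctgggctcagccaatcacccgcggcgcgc
Cpt1c: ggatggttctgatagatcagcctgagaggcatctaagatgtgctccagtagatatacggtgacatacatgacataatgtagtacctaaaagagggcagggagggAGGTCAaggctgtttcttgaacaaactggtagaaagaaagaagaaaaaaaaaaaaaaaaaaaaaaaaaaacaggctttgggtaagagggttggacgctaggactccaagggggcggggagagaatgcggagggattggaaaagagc

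Cpt1a, the liver-type enzyme that malonyl-CoA inhibits and the gatekeeper of mitochondrial entry, read 8.98, 9.11 and 8.97 on DMSO arrays, 9.88 and 9.82 on MYCi arrays, and 9.19, 9.16 and 9.11 on Resc arrays. MYCi values were the highest, and Resc values began just above the top DMSO value. The rise was 1.78-fold (log2 0.83 ± 0.07, adjusted p = 7.27e-06), and the remaining 0.13 between Resc and DMSO did not pass (adjusted p = 0.24). The gene's other 2 probe sets gave rises of 0.72 and 0.90, and both passed.

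Cpt1c, an isoform of brain and endoplasmic reticulum with little enzyme activity, read 7.15, 7.08 and 7.10 with DMSO, 8.11 and 8.10 with the inhibitor, and 7.16, 7.20 and 7.14 after withdrawal. The MYCi arrays were the highest again. Cpt1c rose by 0.99 ± 0.06 (adjusted p = 9.98e-07), and Resc minus DMSO was 0.06 (adjusted p = 0.578). Cpt2 followed with 6.89, 7.05 and 6.88 on DMSO arrays, 8.10 and 8.0 on MYCi arrays, and 7.03, 6.92 and 6.97 on Resc arrays. The MYCi arrays lay apart and the other groups overlapped. Cpt2 rose 2.16-fold (log2 1.11 ± 0.08, adjusted p = 2.27e-06), with a difference of 0.03 between Resc and DMSO. Its other probe set, close to the control level, gave 0.31 and did not pass.

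Slc25a20, the carnitine-acylcarnitine carrier of the inner membrane, read 9.65, 9.74 and 9.73 with DMSO, 10.83 and 10.81 with the inhibitor, and 9.94, 10.01 and 9.96 after withdrawal. Its 3 groups were apart, with Resc in between. It rose 2.16-fold with the inhibitor (log2 1.11 ± 0.06, adjusted p = 6.61e-07) and by 1.31 on its other probe set. After withdrawal it was still 1.2-fold above DMSO (log2 0.26 ± 0.06, adjusted p = 0.0186). This remaining difference did not pass without DMSO replicate 1 (adjusted p = 0.0675), Resc replicate 2 (0.0717) or Resc replicate 3 (0.0553).

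**Figure D2:**
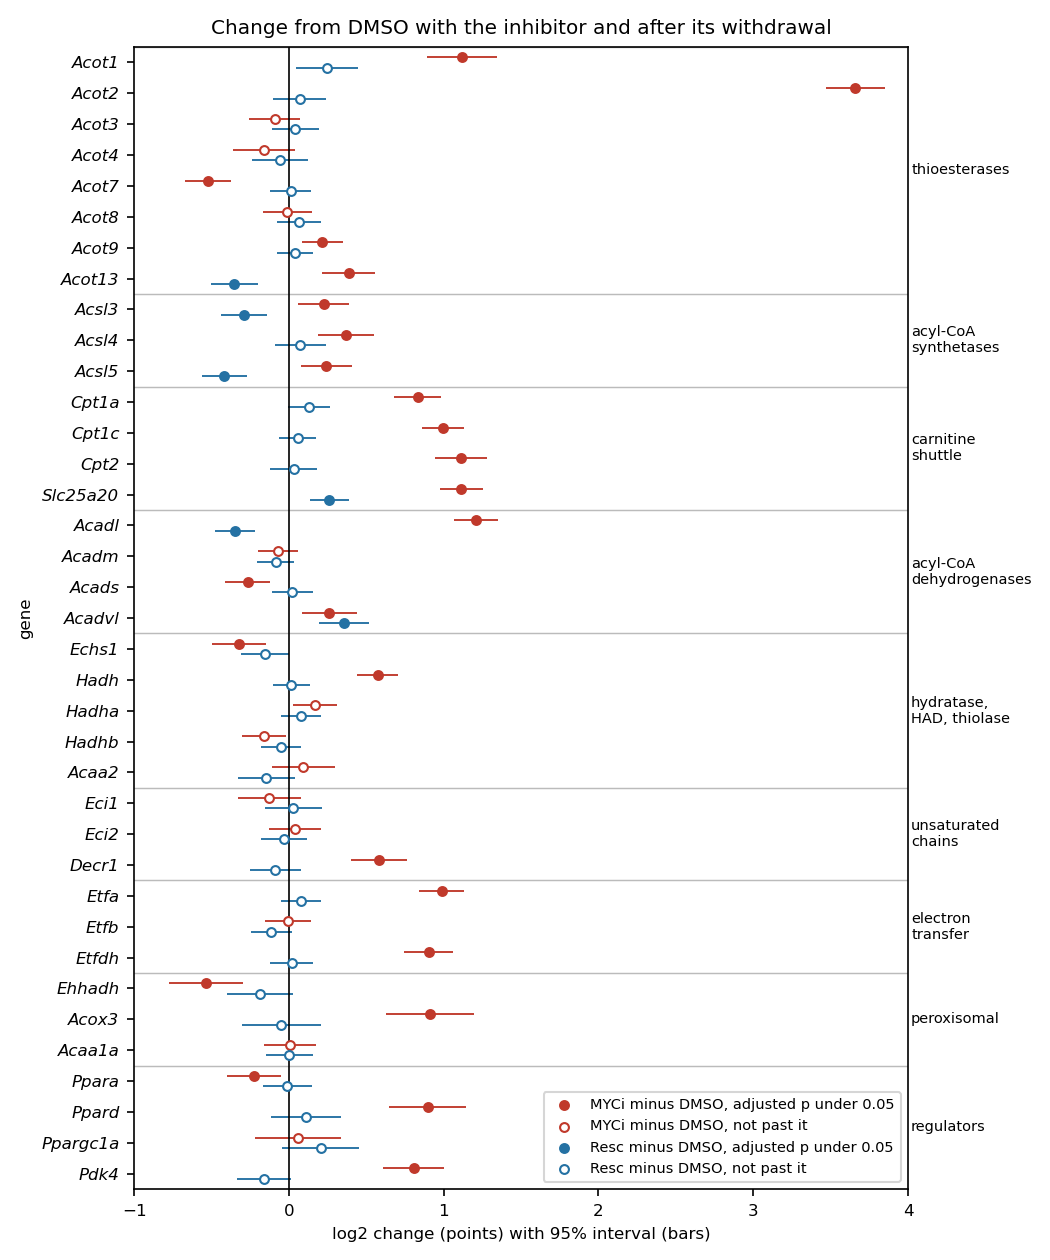
Log2 differences with 95% intervals (unadjusted) for the 37 measured members, MYCi minus DMSO in one colour and Resc minus DMSO in the other, ordered by role, where filled points passed an adjusted p of 0.05. All 4 carnitine shuttle genes lie between 0.83 and 1.11 for MYCi, while differences of Resc that did not pass lie between -0.19 and 0.24.

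The 4 acyl-CoA dehydrogenases, which open each round of β-oxidation on chains of different length, did not move together. Acadl, the long-chain enzyme, read 8.20, 8.24 and 8.19 on DMSO arrays, 9.45 and 9.38 on MYCi arrays, and 7.90, 7.80 and 7.87 on Resc arrays. All 3 groups were apart, with Resc lowest. It rose 2.31-fold with the inhibitor (log2 1.21 ± 0.06, adjusted p = 4.54e-07), fell 2.94-fold between MYCi and Resc (adjusted p = 9.23e-08), and ended 1.27-fold below DMSO (log2 -0.35 ± 0.06, adjusted p = 0.00488). Its other probe set lay at the control level and gave -0.03 between MYCi and DMSO. With the mean of both probe sets, the difference between Resc and DMSO was -0.11 and did not pass (adjusted p = 0.312).

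Acadvl, the very-long-chain enzyme of the inner membrane, went another way. Its values were 6.80, 7.03 and 6.81 with DMSO, 7.12 and 7.16 with the inhibitor, and 7.20, 7.27 and 7.25 after withdrawal, so that both later groups were above all DMSO arrays and Resc was highest. Acadvl rose by 0.26 ± 0.08 with the inhibitor (adjusted p = 0.0242) and by 0.36 ± 0.07 between DMSO and Resc (adjusted p = 0.0138), and Resc and MYCi did not pass (0.10, adjusted p = 0.374). The first of these calls was lost without DMSO replicate 1, DMSO replicate 3 or either MYCi array (adjusted p between 0.0712 and 0.124), and the second without DMSO replicate 1 (0.0535) or Resc replicate 2 (0.0523).

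The short-chain enzyme Acads fell by 0.27 ± 0.07 with the inhibitor (adjusted p = 0.00801), except when MYCi replicate 2 was left out (adjusted p = 0.0527), and was 0.02 from DMSO after withdrawal. Acadm, the medium-chain enzyme, differed by -0.07 with the inhibitor (95% interval -0.20 to 0.06, adjusted p = 0.38). With the inhibitor, then, 2 dehydrogenases rose, 1 fell and 1 did not pass.

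Of the 5 genes for the later steps of β-oxidation, Hadh rose and Echs1 fell. Hadh, the 3-hydroxyacyl-CoA dehydrogenase of short and medium chains, read 11.13, 11.10 and 11.07 with DMSO, 11.70 and 11.65 with the inhibitor, and 11.16, 11.09 and 11.10 after withdrawal. Both MYCi arrays stood above all others, a rise of 1.49-fold (log2 0.57 ± 0.06, adjusted p = 3.66e-05). Echs1, the short-chain enoyl-CoA hydratase, fell by 0.32 ± 0.08 (adjusted p = 0.00746), and without MYCi replicate 2 by 0.22 (adjusted p = 0.0855). The subunits of the mitochondrial trifunctional protein, Hadha and Hadhb, gave 0.17 (95% interval 0.02 to 0.31, adjusted p = 0.0621) and -0.16 (-0.30 to -0.02, adjusted p = 0.0722), and the thiolase Acaa2 gave 0.09. None of these 3 passed on the probe set that stood for the gene, while another probe set of Hadhb rose by 0.54.

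Unsaturated chains need isomerases and a reductase before they can be oxidised. Decr1, the mitochondrial 2,4-dienoyl-CoA reductase, read 7.15, 7.36 and 7.33 on DMSO arrays, 7.90 and 7.82 on MYCi arrays, and 7.11, 7.23 and 7.23 on Resc arrays. Only the MYCi arrays lay outside the range of the others, 1.5-fold higher than DMSO (log2 0.58 ± 0.08, adjusted p = 0.000265). The isomerases Eci1 and Eci2 gave -0.13 and 0.04 and did not pass.

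The electron transfer branch was split by subunit. Etfa, one subunit of the electron transfer flavoprotein, read 9.84, 9.93 and 9.79 with DMSO, 10.86 and 10.82 with the inhibitor, and 9.90, 9.95 and 9.94 after withdrawal. Etfb, the other subunit, read 9.73, 9.85 and 9.71, then 9.78 and 9.73, then 9.61, 9.64 and 9.70. Etfa was thus high on MYCi arrays alone, a rise of 1.98-fold (log2 0.99 ± 0.06, adjusted p = 1.69e-06), while the MYCi values of Etfb lay inside the DMSO range (-0.01, 95% interval -0.16 to 0.14). Etfdh, the reductase that passes the electrons on, read 7.96, 7.94 and 7.96, then 8.88 and 8.84, then 7.90, 8.08 and 7.93, and rose 1.87-fold (log2 0.90 ± 0.07, adjusted p = 5.29e-06). A second probe set of Etfdh, near the control level, fell with the inhibitor by 0.34.

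Of the 3 peroxisomal enzymes, Acox3 rose, Ehhadh fell and Acaa1a did not pass. Acox3, an oxidase of branched chains, read 4.97, 4.99 and 4.94 with DMSO, 6.02 and 5.74 with the inhibitor, and 5.19, 4.80 and 4.77 after withdrawal, where Resc spread to both sides of DMSO. It rose 1.88-fold (log2 0.91 ± 0.13, adjusted p = 0.000254), and its other probe set rose by 0.36. Ehhadh, the bifunctional enzyme and a well-known target of PPARα in liver, fell by 0.53 ± 0.11 (adjusted p = 0.00262), from 6.42, 6.69 and 6.31 to 5.92 and 5.97, and read 6.19, 6.32 and 6.36 after withdrawal. The thiolase Acaa1a differed by 0.01 (95% interval -0.16 to 0.18).

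Among the 4 regulators, Ppard and Pdk4 rose with the inhibitor. Ppard, a nuclear receptor for fatty acids, read 5.41, 5.82 and 5.59 on DMSO arrays, 6.46 and 6.54 on MYCi arrays, and 5.69, 5.63 and 5.82 on Resc arrays. Pdk4, the kinase that shuts off pyruvate dehydrogenase when fatty acids are burned, read 5.93, 5.62 and 5.79, then 6.57 and 6.60, then 5.65, 5.60 and 5.60. For both genes the MYCi arrays were above all others, and Resc overlapped DMSO. The rises were 1.86-fold for Ppard (log2 0.90 ± 0.11, adjusted p = 0.000124) and 1.75-fold for Pdk4 (log2 0.81 ± 0.09, adjusted p = 4.86e-05). Another probe set of Ppard, near the control level, gave -0.09.

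Ppara, the receptor that drives these genes in liver, read 3.78, 3.88 and 3.96 with DMSO, 3.63 and 3.67 with the inhibitor, and 3.89, 3.94 and 3.76 after withdrawal. The MYCi values were under all others. The fall of 0.22 ± 0.08 barely passed (adjusted p = 0.0435) and was lost under most other settings, among them without DMSO replicate 2 (adjusted p = 0.0843), DMSO replicate 3 (0.121), either MYCi array (0.171 and 0.114) or Resc replicate 1 (0.0571). Ppargc1a, a coactivator of mitochondrial genes, read 2.48, 2.73 and 2.62, then 2.71 and 2.63, then 3.03, 2.58 and 2.83. Its mean in each group was under the highest Trpn value, so a change of this gene could not be measured here.

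Short motifs were searched on both strands of RefSeq promoter windows of 300 bases, from 250 before to 50 after a start, and 35 of the 39 genes had a window. The half-site AGGTCA, bound by PPARs and other nuclear receptors, was in 16.3% of all 32851 windows and in those of 7 members (Acadm, Acadvl, Acot3, Acot4, Cpt1a, Cpt1c and Echs1). With the inhibitor Cpt1a, Cpt1c and Acadvl rose, Echs1 fell, and Acadm, Acot3 and Acot4 did not pass. The E-box CACGTG, which MYC with MAX can bind, was in 7.15% of all windows and in that of Acot4. The sequence TGATGNAA, of CEBP-ATF response elements, was in 3.97% of windows and in that of Echs1. TGACNNNGC, the core of antioxidant response elements, was in 12.4% and in those of Acot3, Ehhadh and Ppard. No match of one motif overlapped a match of another in the members' windows, and a match is a run of letters, not a measured binding site.

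**Figure D3:**
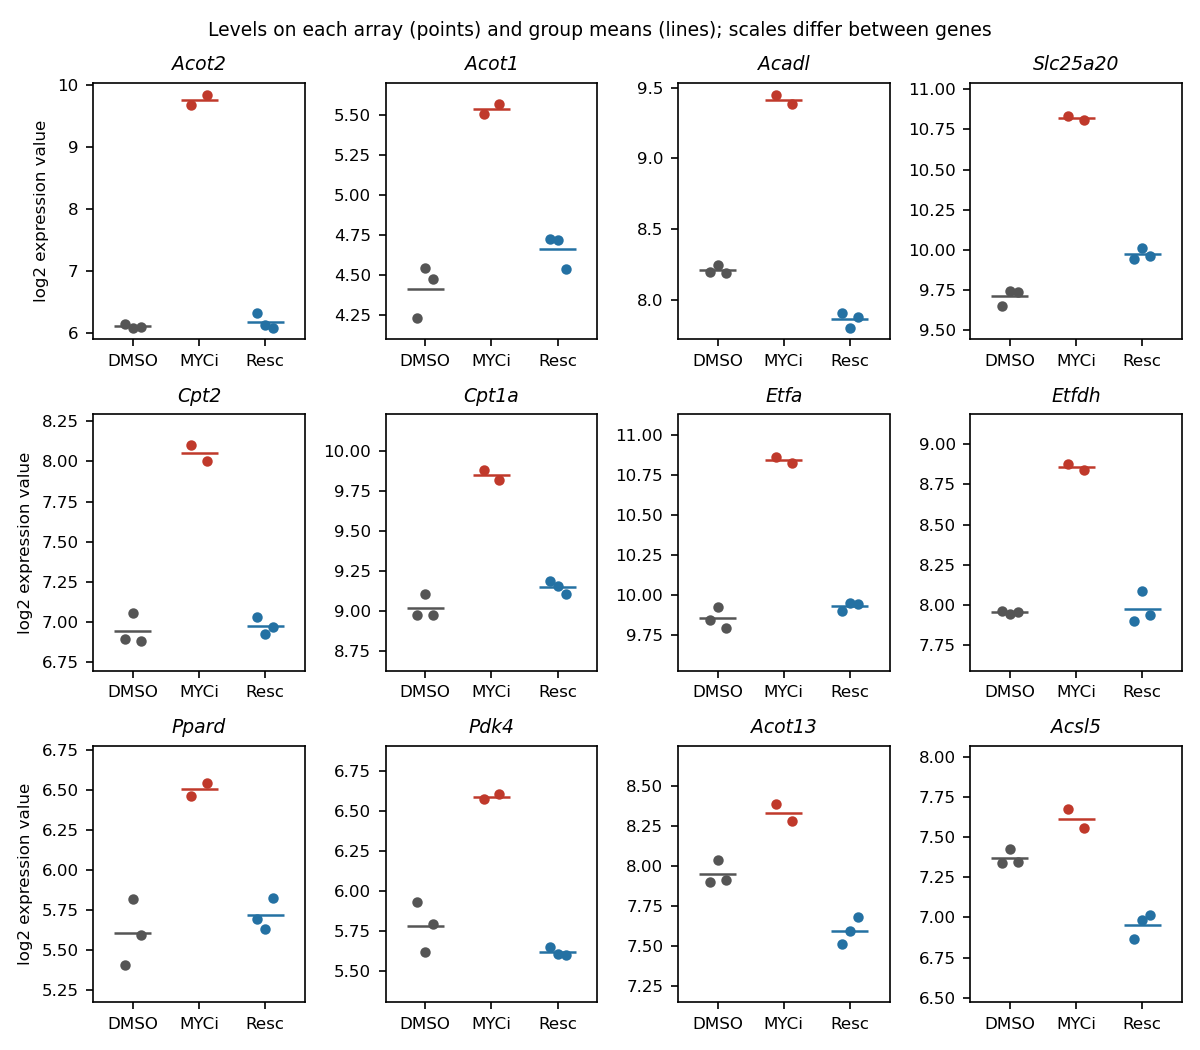
Log2 expression values of 12 members by group, with 1 point per array, a line at the group mean and a y axis of its own for each gene. The 12 were picked from the 20 members that rose with the inhibitor, and the 5 members that fell are not shown. In all 12 panels both MYCi arrays lie above every DMSO array, which follows from this choice. For Acadl, Acot13 and Acsl5 the 3 Resc arrays lie below every DMSO array.

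Between Resc and DMSO most differences were small. The 31 genes that did not pass between Resc and DMSO differed by -0.19 to 0.24, with 95% intervals inside -0.40 to 0.45. The 6 that passed differed by at most 1.34-fold: Slc25a20 and Acadvl were higher, and Acadl, Acsl5, Acot13 and Acsl3 lower. With the inhibitor, in a comparison that shares the DMSO arrays, Slc25a20 and Acadvl had differed by 1.11 and 0.26, and Acadl, Acsl5, Acot13 and Acsl3 by 1.21, 0.24, 0.39 and 0.23. The 3 members higher in Resc than in MYCi were Acot7, by 0.54 (adjusted p = 0.000118), Acads, by 0.29 (adjusted p = 0.00507), and Ehhadh, by 0.35 (adjusted p = 0.0252). The last of these did not pass without either MYCi array (adjusted p = 0.121 and 0.0802), Resc replicate 2 (0.0621) or Resc replicate 3 (0.0728).

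The wider pathway was read from 10 lists with 120 measured genes outside the 37 members. With the inhibitor, 26 of the 120 rose and 23 fell, with a median of -0.02. These are 21.7% and 19.2% of the lists, beside 19.2% and 22.3% of all genes. Between Resc and DMSO, 10 were higher and 6 lower, or 8.33% and 5.0%, beside 4.66% and 4.01% of all genes.

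**Figure D4:**
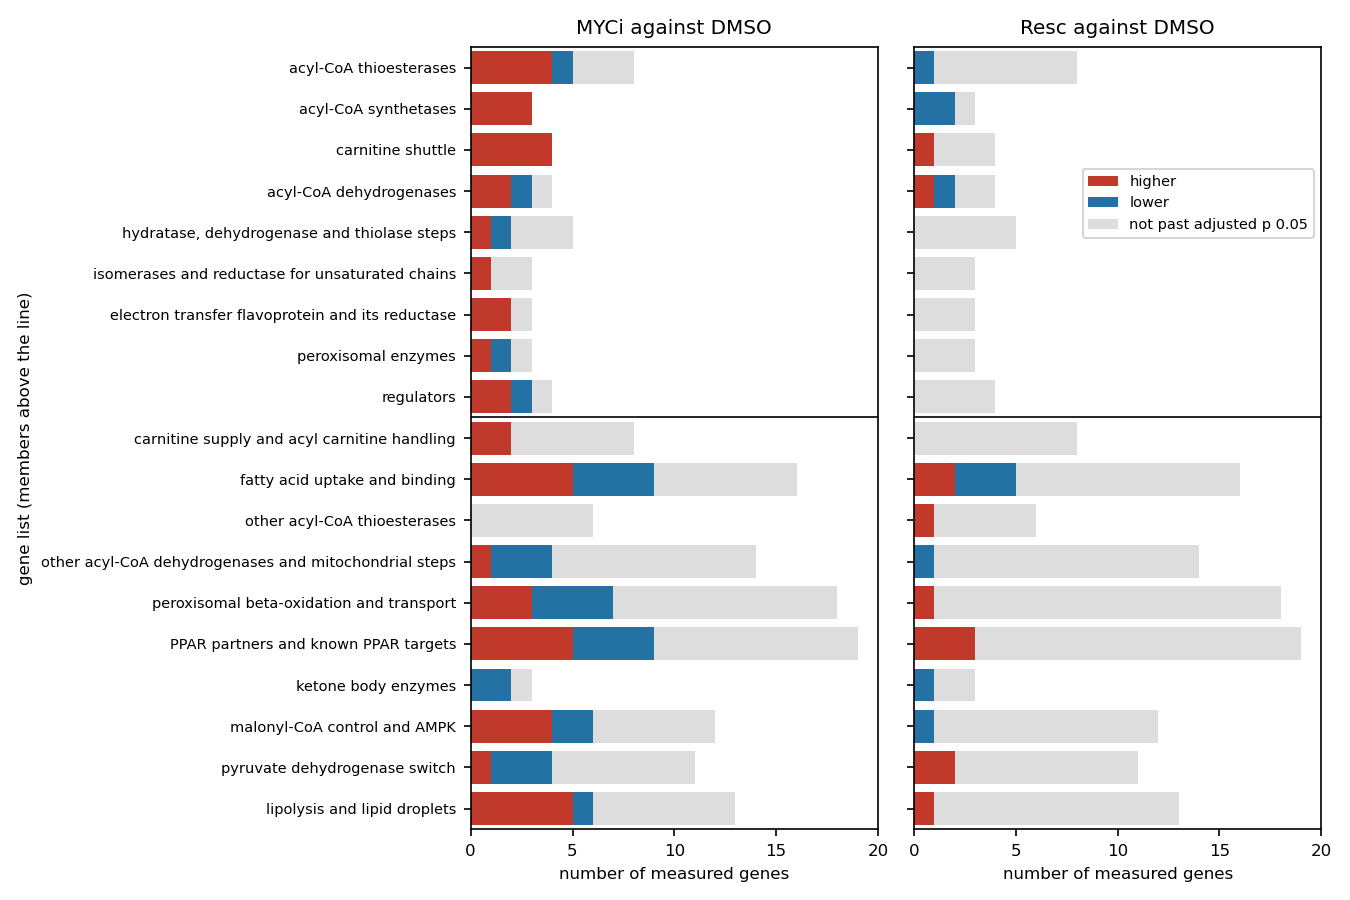
Number of measured genes that were higher, lower or did not pass in each of the 9 roles of the members (above the line) and the 10 wider lists (below it), for MYCi against DMSO (left) and Resc against DMSO (right). The 4 carnitine shuttle genes were all higher with the inhibitor, as were the 3 synthetases on the probe sets plotted (another probe set of Acsl3 fell by 0.56), while the 16 genes of uptake and binding split into 5 higher, 4 lower and the rest.

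Of 8 genes for carnitine supply, 2 rose: Slc22a5, the plasma membrane carnitine transporter, by 0.65 ± 0.09 (adjusted p = 0.000284), and Aldh9a1, an enzyme of carnitine synthesis, by 0.45 ± 0.08 (adjusted p = 0.00127). Of 16 genes for uptake and binding, 5 rose and 4 fell. Fabp5, a fatty acid binding protein, rose by 0.95 ± 0.08 (adjusted p = 8.07e-06), and Acss2, which activates acetate, by 0.68 ± 0.06 (adjusted p = 1.35e-05). Slc27a2, a transporter and synthetase of very long chains, fell by 1.44 ± 0.09 (adjusted p = 1.18e-06) and stayed 0.81 below DMSO after withdrawal (log2 difference -0.81, adjusted p = 0.000301).

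Malonyl-CoA, the inhibitor of Cpt1, and AMP-activated kinase had 12 measured genes, of which 4 rose and 2 fell. Mlycd, the decarboxylase that removes malonyl-CoA, rose by 0.76 ± 0.08 (adjusted p = 3.5e-05). Prkaa2, a catalytic subunit of the kinase, rose by 0.88 ± 0.08 (adjusted p = 1.53e-05), and Sirt3, the main mitochondrial deacetylase, by 0.50 ± 0.07 (adjusted p = 0.00023). Of 13 genes of lipolysis and lipid droplets, 5 rose and 1 fell. Abhd5, the activator of adipose triglyceride lipase, rose by 1.37 ± 0.10 (adjusted p = 3.78e-06), and G0s2, an inhibitor of the same lipase, by 1.12 ± 0.12 (adjusted p = 4.06e-05). Activator and inhibitor thus moved the same way, and Plin3, a droplet coat protein, rose by 0.41 ± 0.06.

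The list drawn up for partners and known targets of PPARs counted 19 genes, 5 higher and 4 lower. It also holds other regulators, such as Nrf1, Esrra and Esrrg. The largest rises were those of Vldlr, a lipoprotein receptor, with 2.52 ± 0.14 (adjusted p = 6.41e-07), and Plin2, the droplet coat protein, with 2.44 ± 0.06 (adjusted p = 1.25e-08). Both were still higher than DMSO after withdrawal, by 0.56 (adjusted p = 0.0224) and 0.28 (adjusted p = 0.0172). Klf11 rose by 0.97 ± 0.08. The 4 that fell were Angptl4, by 0.78 ± 0.06 (adjusted p = 6.93e-06), Ppargc1b, by 0.60 ± 0.08, Nrf1, by 0.48 ± 0.07, and Plin5, by 0.34 ± 0.12. The median of the 19 genes was -0.006.

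The pyruvate dehydrogenase switch held 11 measured genes beside Pdk4, of which 1 rose and 3 fell. Pdk1, a second kinase of the complex, fell by 1.30 ± 0.07 with the inhibitor (adjusted p = 6.2e-07), opposite to Pdk4, and was 0.35 above DMSO after withdrawal (adjusted p = 0.00914). Pdp1, the phosphatase that undoes the kinases' work, fell by 1.01 ± 0.12 (adjusted p = 7.27e-05), and Pdhb, a subunit of the enzyme itself, rose by 0.50 ± 0.07.

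Of 14 other acyl-CoA dehydrogenases and mitochondrial steps, 1 rose and 3 fell, namely Hsd17b10, a mitochondrial dehydrogenase, by 0.74 ± 0.06 (adjusted p = 8.99e-06), Ivd, of leucine breakdown, by 0.37 ± 0.06, and Mcee, of propionate metabolism, by 0.48 ± 0.11. Of 18 further peroxisomal genes, 3 rose and 4 fell. Scp2, a peroxisomal thiolase and sterol carrier, fell by 0.59 ± 0.07 (adjusted p = 0.000104) and Pecr, a reductase, by 0.48 ± 0.08, while Abcd3, an importer of acyl-CoA, rose by 0.32 ± 0.06. Of 3 ketone body enzymes, Bdh1 fell by 0.85 ± 0.07 (adjusted p = 8.04e-06) and Bdh2 by 0.34 ± 0.09 (adjusted p = 0.0159). Of 6 further acyl-CoA thioesterases, 0 passed limma's adjusted p between MYCi and DMSO. An unadjusted p under 0.05 was found for 2 of the 6, beside 8805 of all 18193 genes. Them4 was higher in Resc than in DMSO (0.42, adjusted p = 0.0178), and both Them4 and Them5 were higher in Resc than in MYCi (0.50 and 0.54).

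The probe sets of a member did not always match. In all, 18 members had more than 1 probe set, and the 37 together had 65. Of the 25 members called with the inhibitor, 13 had several, and in 6 of these another probe set passed in the same direction. In Acsl3 and Etfdh another probe set passed in the opposite direction. A probe set of Hadhb with a mean level of 4.625 rose by 0.54, although the one that stood for the gene did not pass. With the mean of all probe sets, the MYCi minus DMSO difference of called members was smaller by over 1.5 times for Cpt2 (0.71), Acadl (0.59), Ppard (0.40), Decr1 (0.35) and Etfdh (0.28), all of which still passed. It was also smaller for Acsl4 (0.18, adjusted p = 0.0576) and Ppara (-0.029, adjusted p = 0.733), which did not pass, and it reversed for Acsl3 (-0.075, adjusted p = 0.334).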

How the data were processed

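Total RNA of 8 samples was labelled with biotin and hybridised to Affymetrix arrays. The authors deposited log2 expression values of probe sets for each array. The tools in the submitters' processing notes are oligo 1.32.0, RMA and limma 3.2.15. Their range of 1.69 to 13.8 served to read the log base. RMA equalises the distributions of arrays, which hides any change of RNA amount that most genes share. Of 45101 probe sets, 34945 had 1 gene in the platform annotation and were used, 932 had several, 9160 had no name here and 64 were controls. The probe set with the highest mean over the 8 arrays stood for its gene, and no filter on level was applied.

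A single limma 3.58.1 model (lmFit, then eBayes, in R 4.3.3) with a mean for each group was fitted to the 18193 genes on all 8 arrays, leaving 5 residual degrees of freedom. Tests were two-sided, and p-values were adjusted by the Benjamini-Hochberg method over all genes of a comparison, with a threshold of 0.05. Intervals of 95% are unadjusted. The number of arrays limits the precision, and the median SE was 0.083 between MYCi and DMSO. On simulated data for 18193 genes, the MYCi against DMSO comparison recovered 10% of genes changed by 0.25, 94% at 0.5 and 100% at 1, and 5.59% of its calls were false. Only 50 genes were changed at each size there, while 3497 rose and 4060 fell in the real comparison. The adjusted p was therefore stricter in the simulation, and recovery in the real comparison was not measured. Tables, promoter windows and figures were handled in Python 3.11.15 with pandas 2.3.3, Biopython 1.88 and matplotlib 3.10.9.

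Members, roles, wider lists and markers were chosen with earlier results of these data known. All members are counted by role. Values on every array are given for members that passed with a log2 change of at least 1 between MYCi and DMSO, for those that passed between Resc and DMSO, and for Cpt1a, Cpt2, Ppara, Ppard, Ppargc1a and Pdk4. Such values of other members were added after they were seen. Of each wider list, up to 3 passing genes with the smallest p are named, and of the list of PPAR partners and targets also the 4 that fell. Alternatives changed the probe set, the level filter, the normalization, the variance model, the arrays or the threshold. Of the wider lists, 129 genes were listed and 120 measured.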

Additional observations from a re-analysis of the deposited data

How the results depend on the processing

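With the inhibitor, the count of members higher than DMSO was 20 and stayed between 14 and 21 under 19 alternatives, and 16 of the 25 calls held in all of them. The count of lower members, 5, fell to 2 with a minimum log2 change of 0.5 and ranged from 2 to 6 when single arrays were left out. Between Resc and DMSO, 0 of the 6 calls held under every alternative. There, the 2 higher members became 0 with limma's adjusted p under 0.01 and 0 with a minimum change of 0.5, with 3 at an unadjusted p under 0.05, and ranged from 0 to 2 without single arrays. They were 0 without DMSO replicate 1 or Resc replicate 2, where 2 and 3 had an unadjusted p under 0.05, and 1 without Resc replicate 3. The 4 lower members became 2 at 0.01 and 0 with the minimum change, with 4 at an unadjusted p under 0.05, and ranged from 3 to 4. Between Resc and MYCi, the 3 higher members became 5 with median centring and 1 with the minimum change, and ranged from 2 to 4, and 18 of 22 calls held throughout. The MYCi minus DMSO difference reversed for Acsl3 with the mean of its probe sets (-0.075) and with every probe set tested (-0.56), and for Ppargc1a with these settings (-0.029 and -0.14), while leaving out single arrays gave -0.0079 (without DMSO replicate 1) to 0.12. The cause was not tested. The replicate numbers were not taken as pairs, because no source used here says that equal numbers share a culture. Same-numbered arrays did not deviate together (r from -0.06 to 0.01 over 7 pairs), but these pairs share arrays and are not independent readings. With the replicate number as a block, 17 members were higher and 4 lower between MYCi and DMSO, 2 and 3 between Resc and DMSO, and 3 and 18 between Resc and MYCi. Over all genes, calls between MYCi and DMSO went from 3497 and 4060 to 1820 and 1464 with the minimum change, and those between Resc and MYCi from 4122 and 3494 to 1518 and 1821. Between Resc and DMSO they went from 847 and 729 to 1382 and 1259 with a variance trend, to 351 and 306 at 0.01, and to 220 and 190 with the minimum change. They were as low as 498 higher without Resc replicate 2, 535 higher without DMSO replicate 1, 457 lower without DMSO replicate 2 and 432 lower without Resc replicate 1. Changes of 0.25 were mostly missed in the simulation, where few genes were changed. In the real MYCi against DMSO comparison, some members with differences near that size passed, such as Acot9 (0.22) and Acads (-0.27). Small changes can still be missed at this number of arrays, and genes near the Trpn level can show only compressed differences.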
